A study of Mus musculus with 8 samples.

Results

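Meg3, Rian, Mirg, H19, Igf2, Cdkn1c, Peg3, Plagl1, Grb10 and Igf2r are imprinted genes, of which the allele from a single parent is used in at least some tissues. These 10 gene symbols were taken by name from a table of 24328 symbols in 8 libraries of polyadenylated RNA from satellite cells of the mouse, which are stem cells of skeletal muscle. The libraries fell into 4 groups of 2, all from mice on a C57BL/6 background aged 2 months. In the PFA-perfused group, mice of the genotype Pax7-nGFP, a nuclear reporter driven by Pax7, were perfused with the fixative PFA (paraformaldehyde) and their satellite cells were then sorted. The PBS-perfused group had the same genotype and received buffer (PBS) without fixative. The unperfused group was wild type and received neither, and the injury-activated group was wild type and unperfused, with the cells taken 2.5 days after muscle injury. The sort kept Vcam-positive cells without CD31, CD45 or Sca-1, and RNA was purified with one kit from fixed and with another from unfixed cells. Genotype and perfusion therefore cannot be told apart in comparisons of perfused with unperfused groups, nor fixation and RNA kit in comparisons with the PFA-perfused group. The study text names a pair of sequencers and the library protocol only one of them, so a difference in sequencer between groups was not tested. Nothing in the labels ties the 2 libraries of a group to separate animals, and a p-value then covers only the spread between libraries, which may be technical. Values are given below in the order of the libraries, as with PFA, with PBS, without perfusion and after injury.

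Imprinted genes are marked by DNA methylation set in the parental germ line, and many of them act on growth. Meg3, Rian and Mirg are long non-coding RNAs made from the maternal copy of 1 region of chromosome 12, between the protein-coding genes Dlk1 and Dio3, and they carry a large cluster of microRNAs and small nucleolar RNAs. Igf2 is a growth factor made from the paternal allele, H19 is the non-coding RNA made from the maternal copy beside it, and Igf2r is the receptor that takes Igf2 up for breakdown. Grb10 is an adaptor that binds the insulin and IGF1 receptors and dampens their signal. Cdkn1c is an inhibitor of cyclin-dependent kinases, Plagl1 is a zinc finger transcription factor tied to cell cycle arrest, and Peg3 is a zinc finger protein made from the paternal allele. Satellite cells rest out of the cell cycle in uninjured muscle and enter it after injury.

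The microRNAs of the chromosome 12 region are shown first, because the precursors lie in or near Meg3, Rian and Mirg, where the largest differences below were found. Mature sequences are from RefSeq (GRCm38.p6), written 5′ to 3′, with the seed (bases 2 to 8) in capitals. RefSeq held 100 mature arms for 53 precursors of the region, with 93 distinct seeds. Of the 8 precursors that reached a group mean of 5 FPKM in these libraries, 5 have arms whose seed no other arm of the region shares in the lines below, and 3 have an arm that shares its seed with another precursor of the region, printed after it.
mmu-miR-1906: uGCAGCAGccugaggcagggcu
mmu-miR-539-5p: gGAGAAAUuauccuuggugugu
mmu-miR-485-3p: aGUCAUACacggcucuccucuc
mmu-miR-377-5p: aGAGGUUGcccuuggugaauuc
mmu-miR-3072-5p: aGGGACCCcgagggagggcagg
mmu-miR-370-5p: cAGGUCACgucucugcaguu
mmu-miR-1193-3p: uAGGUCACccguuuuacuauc
mmu-miR-453: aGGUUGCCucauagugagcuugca
mmu-miR-496a-5p: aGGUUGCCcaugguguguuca
mmu-miR-410-5p: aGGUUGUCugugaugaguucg
mmu-miR-494-5p: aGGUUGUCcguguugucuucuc
In all, 7 seeds were shared, each by an arm pair, over 14 of the 100 arms.

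Promoter windows from RefSeq on GRCm38.p6, which run from 250 bases before to 50 bases after a transcript start, were found for 8 of the 10 genes, 13 windows in all. The palindrome TGACGTCA, the full cyclic AMP response element, reads the same on both strands and occurred in 1.79% of all 32851 windows of 300 bases. Among the 13 windows it occurred in 2, the first Meg3 window at chr12:109540746-109541045 on the plus strand and the Peg3 window at chr7:6730370-6730669 on the minus strand. Both are printed 5′ to 3′ in the direction of the gene with the palindrome in capitals, because Meg3 and Peg3 are described at length below.
Meg3: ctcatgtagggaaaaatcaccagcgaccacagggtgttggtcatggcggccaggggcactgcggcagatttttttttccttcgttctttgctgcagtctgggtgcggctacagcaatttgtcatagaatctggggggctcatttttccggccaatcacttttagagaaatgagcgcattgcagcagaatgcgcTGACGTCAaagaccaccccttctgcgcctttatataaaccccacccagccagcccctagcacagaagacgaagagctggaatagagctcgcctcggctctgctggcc
Peg3: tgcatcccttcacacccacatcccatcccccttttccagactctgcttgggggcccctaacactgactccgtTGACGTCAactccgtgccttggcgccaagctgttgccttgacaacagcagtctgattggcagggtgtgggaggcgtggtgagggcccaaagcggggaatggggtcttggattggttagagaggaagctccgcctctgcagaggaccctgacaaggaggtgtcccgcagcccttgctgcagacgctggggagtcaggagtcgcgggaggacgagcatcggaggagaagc
The E-box CANNTG occurred in 8 of the 13 windows and in 72.3% of all windows, and the MEF2 motif in 0 of the 13 and in 3.19% of all. A match is a description of the letters only.

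The values are FPKM, fragments scaled to transcript length and library, and no counts were given, so the depth is unknown. Total FPKM ran from 461454 to 582336 per library, and replicates correlated at 0.972 to 0.997 across tested genes on the log2(FPKM + 1) scale. All 12 satellite cell markers were above 0 in every library. Pax7 stood at 328 and 567 FPKM with PFA, 48.3 and 79.6 with PBS, 19.8 and 20.4 without perfusion and 4.59 and 4.40 after injury. The 12 markers summed to 3394 to 3834 FPKM with PFA and 4919 to 5587 with PBS. Their sum was 30604 to 43854 without perfusion and 1520 to 1563 after injury, so the list did not keep the order of Pax7. Rn45s, the ribosomal RNA precursor, took 9.80 and 19.4% of all FPKM in the PFA-perfused libraries and at most 6.64% in any other library. Malat1, a nuclear RNA, took 6.71 to 7.43% in the 4 perfused, 1.16 to 1.25% in the unperfused and at most 0.0796% in the injury-activated libraries. In bulk RNA, fewer cells of a type and less RNA per cell cannot be told apart.

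All 10 genes had values above 0 in every library and reached 1 FPKM in 2 or more libraries, the filter that left 12515 genes to be tested. Differences below are of mean log2(FPKM + 1), first group minus second, with the standard error from 1 limma model of all 8 libraries. A call means a p under 0.05 after Benjamini-Hochberg adjustment over all tested genes, and only called genes are said to rise, fall or change. The plot of FPKM by library shows all 10 genes.

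**Figure D1:**
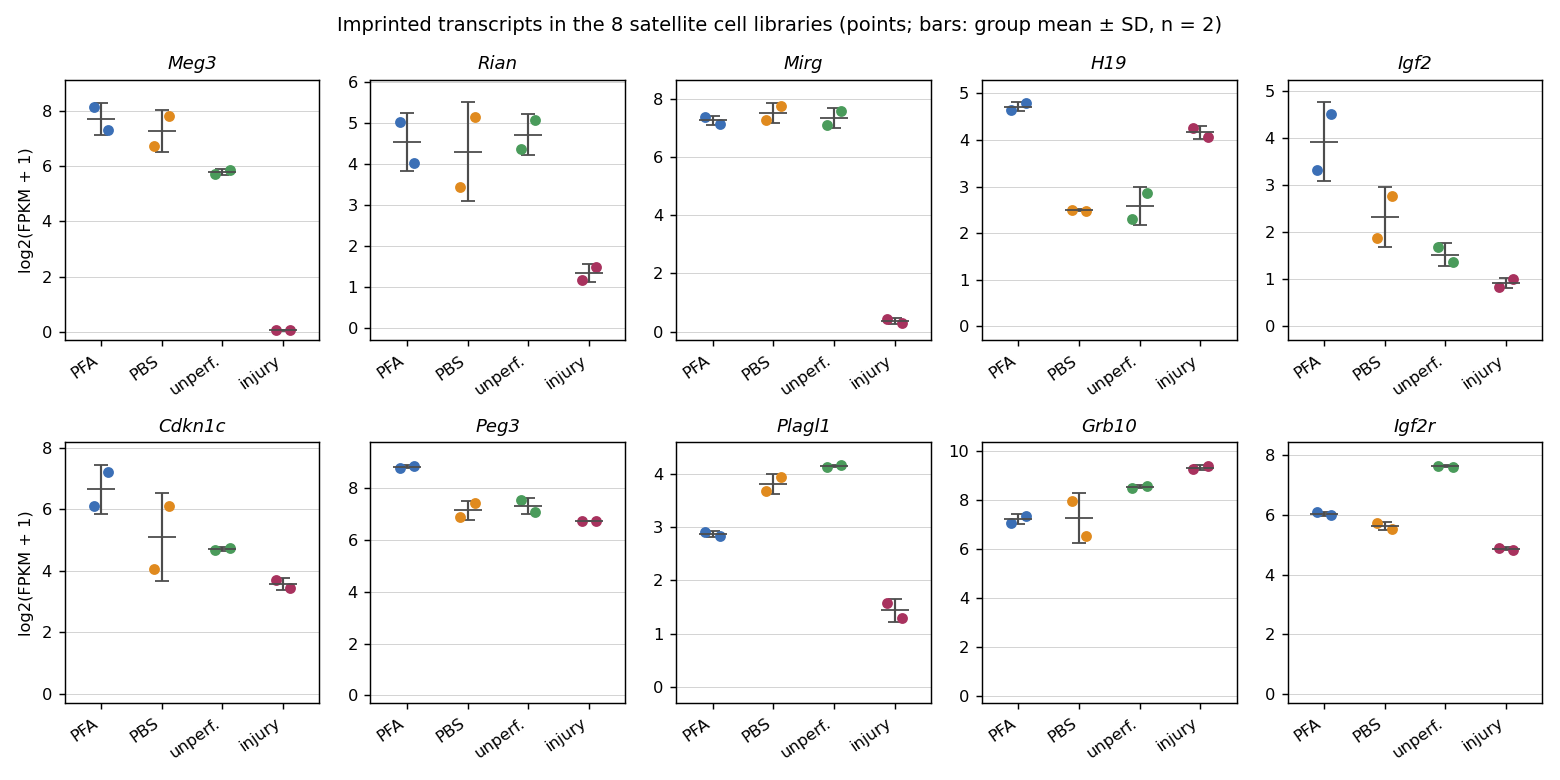
Level of each of the 10 imprinted transcripts, as log2(FPKM + 1) on the vertical axis, in the PFA-perfused, PBS-perfused, unperfused (unperf.) and injury-activated (injury) libraries. Points are libraries and bars are group means ± SD (n = 2). All but H19 and Grb10 have their lowest points in the injury-activated libraries. Meg3, H19, Igf2, Cdkn1c and Peg3 have their highest group mean in the PFA-perfused libraries.

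After injury, most of these transcripts stood lower than in resting cells, with Meg3 and Mirg the furthest down. Against the unperfused group, which shares genotype and handling, 5 of the 10 genes fell (Meg3, Rian, Mirg, Plagl1 and Igf2r), H19 rose and 4 were not called. In a fit of these 2 groups alone 9 were called, with Igf2 (limma adjusted p = 0.0160), Cdkn1c (adjusted p = 0.00237) and Grb10 (adjusted p = 0.0282) added at the same differences. Of all tested genes 70% were called in this comparison, 40.8% higher and 29.3% lower. The median difference was -1.92 over the 10 genes and 0.17 over all tested genes. The libraries of both groups did not overlap for any of the 10, nor for 89.2% of all tested genes. Injury-activated libraries also did not overlap the PFA-perfused or the PBS-perfused for any of the 10, beside 91.3% and 89.4% of all tested genes.

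Against the PFA-perfused group, 8 genes were lower in injury-activated cells, Grb10 was higher and H19 was not called. Of all tested genes 73.5% were called, 26.1% higher and 47.3% lower, and the medians were -2.56 over the 10 and -0.48 over all. Against the PBS-perfused group, 7 were lower, H19 and Grb10 were higher and Peg3 was not called. The background there was 73.2% called, 34.4% higher and 38.8% lower, with medians of -1.46 and -0.11. These 3 comparisons share the injury-activated libraries, so their counts are not independent.

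Among the uninjured groups, the PFA-perfused cells had the most H19, Igf2, Cdkn1c and Peg3 and the least Plagl1. PBS-perfused against PFA-perfused cells gave 4 of the 10 lower (H19, Igf2, Cdkn1c and Peg3), Plagl1 higher and 5 not called. Over all tested genes 64% were called, 17.8% higher and 46.2% lower, and the medians were -0.43 over the 10 and -0.50 over all. Unperfused against PFA-perfused cells gave 5 lower (Meg3, H19, Igf2, Cdkn1c and Peg3), 3 higher (Plagl1, Grb10 and Igf2r) and 2 not called. There 73.6% of all tested genes were called, 17.4% higher and 56.3% lower, with medians of -0.72 and -0.81. Unperfused against PBS-perfused cells gave Meg3 lower, Grb10 and Igf2r higher and 7 not called, beside 49.6% of all genes called, 13.1% higher and 36.5% lower, with medians of 0.13 and -0.36. These 3 comparisons share the libraries of each group. In the same order the libraries did not overlap for 5, 8 and 5 of the 10 genes, beside 79.9%, 85.6% and 72.1% of all tested genes. With trimmed mean scaling, PBS-perfused against PFA-perfused cells gave 2 of the 10 higher and 2 lower. Unperfused against PFA-perfused cells then gave 4 higher and 2 lower, so lower calls no longer outnumbered higher calls in either comparison. Over all tested genes the calls also became more even, at 3442 higher and 3407 lower and at 4147 higher and 4411 lower.

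Scaling the libraries by a trimmed mean of ratios moved the median of all genes to between -0.24 and -0.04 in all 6 comparisons. The calls over all genes then split into 3442 higher and 3407 lower for PBS-perfused against PFA-perfused, where the unscaled fit gave 2225 and 5783. They split into 4147 and 4411, from 2173 and 7043, for unperfused against PFA-perfused, and into 2806 and 3231, from 1643 and 4562, for unperfused against PBS-perfused. For injury-activated against unperfused cells the split was 4006 and 5064, from 5100 and 3663, and against PFA-perfused cells 4075 and 4879, from 3272 and 5925. For injury-activated against PBS-perfused cells it was 4008 and 5214, from 4302 and 4861. Where this scaling ends or makes a call on 1 of the 10 genes, its value stands beside the result.

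**Figure D2:**
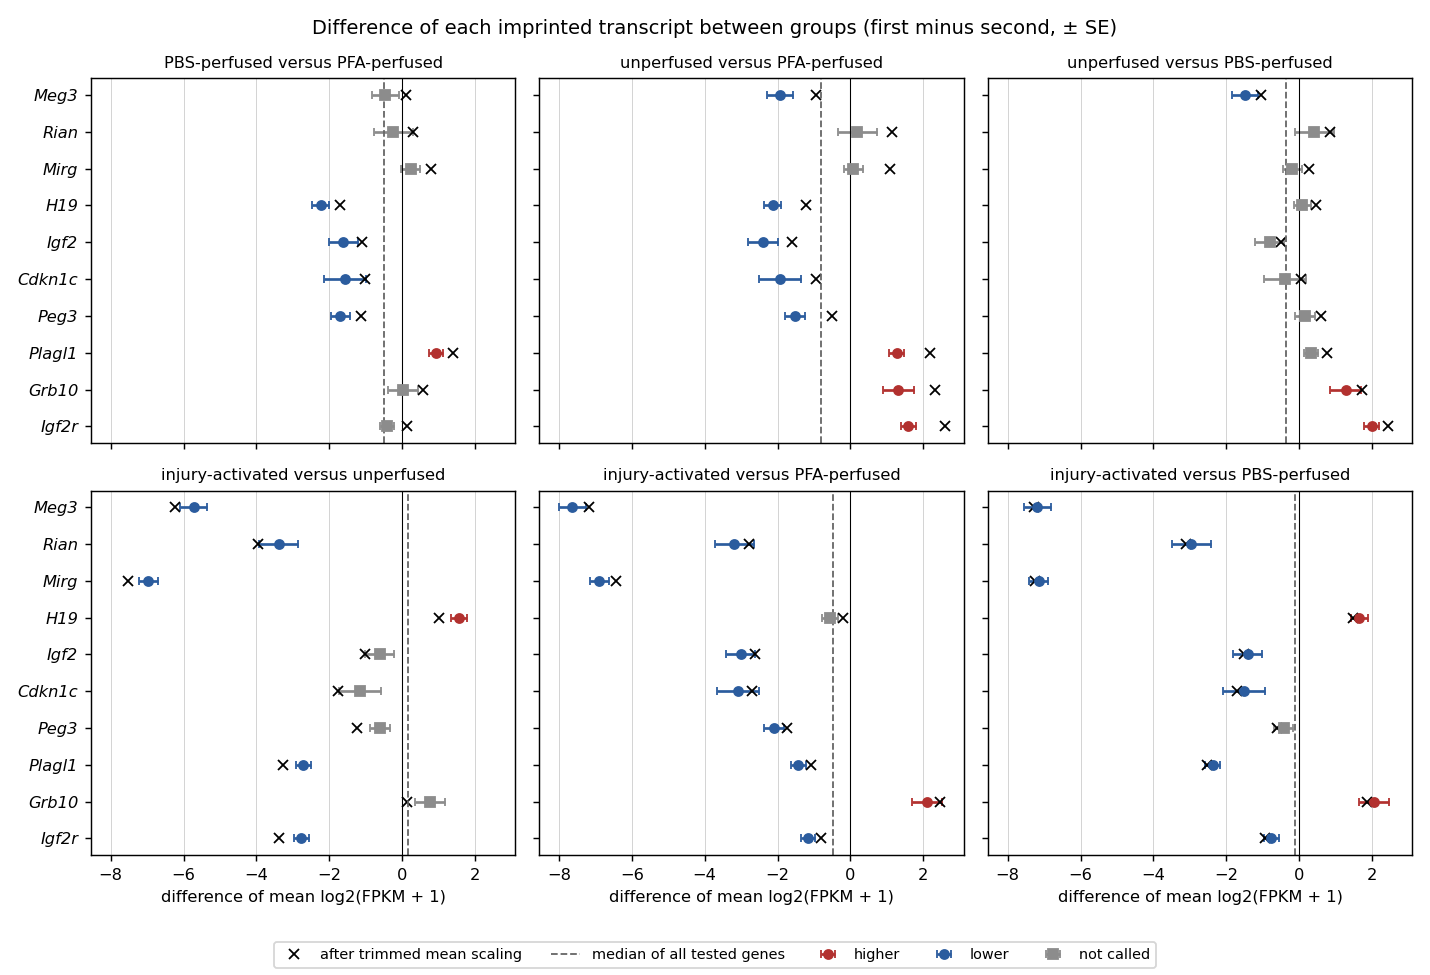
Difference of mean log2(FPKM + 1) for each of the 10 transcripts in the 6 comparisons, with the limma standard error as bars, red for higher, blue for lower and grey for not called. Crosses give the value after trimmed mean scaling and the dashed line is the median of all tested genes. Meg3 and Mirg lie between -5.72 and -7.65 in the 3 injury comparisons, while Rian lies between -2.96 and -3.38.

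Meg3, a chromatin-binding RNA and the first of the non-coding genes of the chromosome 12 region, was measured at 278 and 158 FPKM with PFA and 105 and 222 with PBS. It stood at 51.6 and 56.7 without perfusion and 0.0570 and 0.0410 after injury. Every uninjured library was above 50 FPKM and both injury-activated libraries were close to 0. Against the unperfused group Meg3 fell by 5.72 ± 0.37 after injury (limma adjusted p = 2.24e-06), the 25th lowest difference of the 12515 tested genes. Against the PFA-perfused group it was the 7th lowest (-7.65 ± 0.37, adjusted p = 4.74e-07) and against the PBS-perfused group the 14th lowest (-7.19 ± 0.37, adjusted p = 7.21e-07).

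Among uninjured cells the order of Meg3 group means was PFA-perfused, PBS-perfused, unperfused. The first pair overlapped and did not pass the test (-0.45 ± 0.37, limma adjusted p = 0.306). Its difference depended on the PBS-perfused library kept, at -0.99 without the second and 0.081 without the first. Unperfused cells had less Meg3 than PBS-perfused cells (-1.48 ± 0.37, adjusted p = 0.00928) and than PFA-perfused cells (-1.93 ± 0.37, adjusted p = 0.00112). After trimmed mean scaling the last of these was -0.93, with an adjusted p of 0.0508. The difference from PBS-perfused cells was -0.94 (adjusted p = 0.0540) without the second PBS-perfused library and -1.41 (adjusted p = 0.0523) without the first unperfused library.

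Mirg, the non-coding host of the last microRNAs of the region, was high in all 6 uninjured libraries. It was measured at 164 and 140 FPKM with PFA, 152 and 216 with PBS, 135 and 190 without perfusion and 0.353 and 0.219 after injury. The uninjured groups overlapped one another, and the injury-activated libraries lay far below them. The fall after injury was 6.97 ± 0.26 against the unperfused group (limma adjusted p = 3.97e-07), the 6th lowest of all tested genes. It was -6.90 ± 0.26 against the PFA-perfused and -7.15 ± 0.26 against the PBS-perfused group, the 15th and 16th lowest. No uninjured pair of groups differed in the unscaled fit (adjusted p from 0.418 to 0.805), but after trimmed mean scaling Mirg was lower in PFA-perfused cells than in PBS-perfused (difference 0.81, adjusted p = 0.0409) and unperfused cells (1.08, adjusted p = 0.00920).

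Rian, the host of the middle of the region and of its small nucleolar RNAs, kept a measurable level after injury. Its values were 31.8 and 15.3 FPKM with PFA, 9.91 and 34.7 with PBS, 19.6 and 32.9 without perfusion and 1.27 and 1.83 after injury. The uninjured groups overlapped, and within each the libraries lay up to several fold apart. Rian fell by 3.38 ± 0.53 after injury against the unperfused group (limma adjusted p = 0.000375), from a mean of 26.2 ± 9.40 to 1.55 ± 0.394 FPKM (SD, n = 2), a ratio of 16.9. No uninjured pair was called, with differences of -0.23, 0.19 and 0.42.

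The balance among the 3 RNAs of the region differed between groups, given here as ratios of FPKM with no test. Meg3 was 8.75 and 10.3 times Rian in the PFA-perfused, 10.6 and 6.39 times in the PBS-perfused and 2.63 and 1.73 times in the unperfused libraries. In the injury-activated libraries the ratio was 0.0448 and 0.0224, so that Rian was the most abundant of the 3 there. Meg3 to Mirg was 1.69 and 1.12 with PFA, 0.691 and 1.03 with PBS, 0.381 and 0.299 without perfusion and 0.161 and 0.187 after injury.

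The protein-coding genes of the region behaved differently from one another. Rtl1, a retrotransposon-derived gene made from the paternal copy on the strand opposite to several microRNAs, stood at 8.45 and 9.96 FPKM with PFA and 6.91 and 11.02 with PBS. It was at 0.444 and 0.377 without perfusion and 0.00823 and 0.00856 after injury. Rtl1 passed the filter on low values only through the perfused groups, so no test of it is given. The deposited files do not say whether counting used strand, so reads of Rtl1 and of the maternal transcripts across it cannot be told apart. Dlk1, a membrane protein of growth and differentiation, did not exceed 0.425 FPKM in any library, and Dio3, a thyroid hormone deiodinase, did not exceed 0.105.

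Entries for 53 of 55 listed microRNA precursors of the region were in the table. These are fragments of long polyadenylated RNA at the precursor positions and not mature microRNAs, and short entries overlap their host transcripts. Summed over the entries, the level was 131 and 76.3 FPKM with PFA, 75.7 and 126 with PBS, 44.4 and 62.9 without perfusion and 0.117 and 0.0115 after injury. Entries above 0 numbered 41 and 31 with PFA, 35 and 42 with PBS, 40 and 36 without perfusion and 4 and 1 after injury. Both injury-activated libraries listed 49 of the 53 at 0, of which 44 were above 0 in another library, and the highest injury-activated value was 0.0593 FPKM. Only 17 entries passed the filter on low values, and did so through the uninjured groups, so no test over them is given.

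Single precursors differed in where they were high. Mir1906-1, which lies within Meg3, was measured at 46.4 and 19.5 FPKM with PFA, 14.0 and 38.0 with PBS and 4.45 and 3.11 without perfusion, the order of Meg3 itself. This entry has a near-identical copy elsewhere, so its values are uncertain. Mir370, within Rian, went the other way, with 12.2 and 17.4 FPKM in the unperfused libraries and at most 1.32 in any perfused library. The unperfused libraries listed Mir539 at 0 and 0.00980 FPKM, and the 4 perfused libraries at 4.66 to 8.75. Mir410, within Mirg, was spread more evenly, at 9.54 and 6.56, 10.6 and 18.0, and 6.29 and 6.58 FPKM in the PFA-perfused, PBS-perfused and unperfused libraries. Both injury-activated libraries listed Mir370, Mir539 and Mir410 at 0. The arms mmu-miR-370-5p and mmu-miR-410-5p printed above share their seeds with arms of other precursors of the region.

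**Figure D3:**
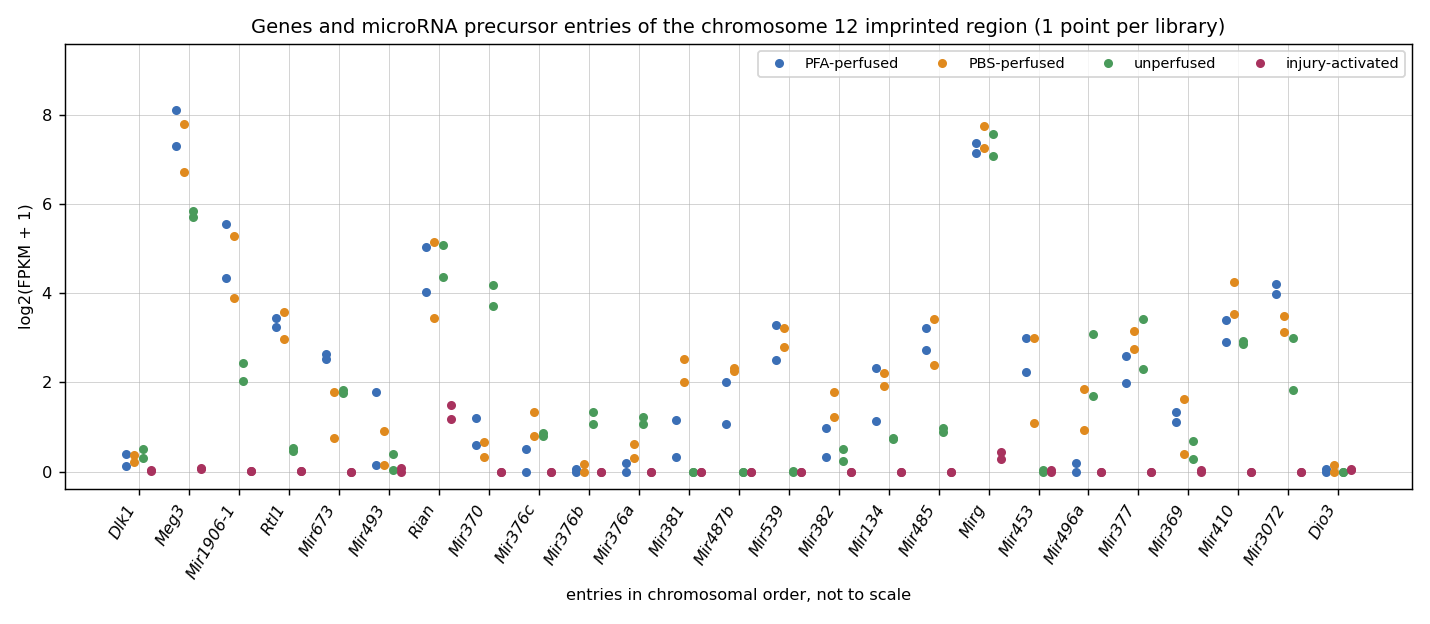
Level of Meg3, Rian, Mirg, their protein-coding neighbours and microRNA precursor entries, as log2(FPKM + 1), in chromosomal order and not to scale. Precursor entries are shown where a group mean reached 1 FPKM. Each point is a library, coloured by group. The injury-activated points lie near 0 for every entry but Rian (1.27 and 1.83 FPKM) and Mirg (0.353 and 0.219 FPKM), and Mir370 is high in the unperfused libraries.

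Igf2, the paternally expressed growth factor, was low in these cells and highest after fixation. Its values were 9.04 and 21.9 FPKM with PFA, 2.65 and 5.84 with PBS, 2.23 and 1.56 without perfusion and 0.786 and 0.997 after injury. The group means fell in that order and no neighbouring groups overlapped, but only the first step was called. Igf2 was lower in PBS-perfused than in PFA-perfused cells (-1.60 ± 0.40, limma adjusted p = 0.00694), a difference of -1.10 with an adjusted p of 0.0559 after trimmed mean scaling. The call was also lost with quantile normalization (-1.21, adjusted p = 0.0571) and without the first PBS-perfused library (-1.15, adjusted p = 0.0568). It was also lower in unperfused (-2.40 ± 0.40, adjusted p = 0.000492) and injury-activated cells (-3.01 ± 0.40, adjusted p = 0.000121) than in PFA-perfused cells. The steps from PBS-perfused to unperfused (-0.79, adjusted p = 0.128) and from unperfused to injury-activated cells (-0.61, adjusted p = 0.202) did not pass. Injury-activated cells had less Igf2 than PBS-perfused cells (-1.40 ± 0.40, adjusted p = 0.0108), a value of -0.95 (adjusted p = 0.0898) without the second PBS-perfused library. With no filter on low values its adjusted p was 0.0557, and with quantile normalization 0.0657.

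H19, the non-coding RNA that shares an enhancer region with Igf2, was high in the PFA-perfused and the injury-activated groups. Its values were 24.1 and 26.5 FPKM with PFA, 4.68 and 4.56 with PBS, 3.92 and 6.30 without perfusion and 18.1 and 15.7 after injury. It was lower in PBS-perfused (-2.23 ± 0.23, limma adjusted p = 7.70e-05) and unperfused cells (-2.13 ± 0.23, adjusted p = 3.34e-05) than in PFA-perfused cells. After injury it rose by 1.58 ± 0.23 against unperfused (adjusted p = 0.000227) and by 1.67 ± 0.23 against PBS-perfused cells (adjusted p = 0.000156). The PBS-perfused and unperfused libraries overlapped (0.09, adjusted p = 0.760), and the injury-activated and PFA-perfused groups did not differ beyond the threshold (-0.56 ± 0.23, adjusted p = 0.0519). That last difference was called when Rn45s and Malat1 were removed (-0.82, adjusted p = 0.0118), in a fit of the 2 groups alone (adjusted p = 0.0123), and without the first (adjusted p = 0.0173) or the second unperfused library (adjusted p = 0.0175). H19 to Igf2 was thus 23.0 and 15.8 in the injury-activated libraries and between 0.781 and 4.03 in the other 6, as a ratio of FPKM. Mir675, the precursor within H19, did not exceed 0.238 FPKM, and Mir483, the precursor within Igf2, was listed at 0 in all 8 libraries.

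Markers of satellite cells and of other cell types moved in both directions beside the rise of H19 after injury. Against unperfused cells, 7 of 7 tested haematopoietic markers, 5 of 7 tenocyte markers and 5 of 7 myofibre markers were higher in injury-activated cells. Of all tested genes 40.8% were higher and 29.3% lower there. The summed haematopoietic list ran from 58.9 to 64.6 FPKM after injury and from 3.79 to 5.99 in the unperfused libraries, where Ptprc, Tyrobp and Adgre1 in the first and Cd52 and Adgre1 in the second were at 0. None of the 11 haematopoietic markers was at 0 after injury, and Ptprc stood at 0.203 and 0.250 FPKM. The tenocyte sum was 228 to 242 against 53.3 to 149 FPKM, and the myofibre sum 228 to 272 against 58.8 to 61.2, with no marker of either list at 0. Satellite cell markers went the other way, with 1 of 12 higher and 9 lower. Mural markers had 0 of 11 higher and 7 lower, endothelial 0 of 11 and 3, and glial 1 of 6 and 3. Notch3 and Des are in both the mural and the satellite cell list, so those counts are not separate. Of 10 fibro-adipogenic markers 5 were higher and 3 lower, with a sum of 118 to 146 against 880 to 1108 FPKM. In PBS-perfused against PFA-perfused cells, 10 of 11 endothelial, 7 of 10 fibro-adipogenic and 6 of 7 tenocyte markers were higher, beside 17.8% of all tested genes. The endothelial sum was 162 to 239 FPKM with PBS against 64.7 to 72.1 with PFA, with no marker at 0. The tenocyte sum was 59.8 to 114 against 5.39 to 14.5 FPKM, but the fibro-adipogenic sum did not follow its count, with 665 to 737 against 736 to 1224 FPKM. In unperfused against PBS-perfused cells, 10 of 11 endothelial, 7 of 10 fibro-adipogenic and 5 of 7 haematopoietic markers were lower, beside 36.5% of all tested genes. The endothelial sum was there 28.1 to 41.7 against 162 to 239 FPKM and the haematopoietic sum 3.79 to 5.99 against 33.3 to 41.3, while the fibro-adipogenic sum was 880 to 1108 against 665 to 737. The part of these markers in the results on the 10 genes was not tested.

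Igf2r, the receptor that clears Igf2, was highest in unperfused cells. It was measured at 67.0 and 62.0 FPKM with PFA, 51.5 and 45.3 with PBS, 200 and 194 without perfusion and 29.0 and 27.6 after injury, with no overlap between any of the 4 groups. The unperfused group exceeded the PFA-perfused by 1.60 ± 0.20 (limma adjusted p = 8.83e-05) and the PBS-perfused by 2.00 ± 0.20 (adjusted p = 6.55e-05). After injury Igf2r fell by 2.76 ± 0.20 against unperfused cells (adjusted p = 4.16e-06). It was also lower than in PFA-perfused (-1.16 ± 0.20, adjusted p = 0.000645) and PBS-perfused cells (-0.75 ± 0.20, adjusted p = 0.00787). The last call was lost without either injury-activated library (-0.79, adjusted p = 0.0631, and -0.72, adjusted p = 0.0851) and with both averaged to 1 (adjusted p = 0.0736). The PFA-perfused and PBS-perfused groups did not pass the test (-0.41 ± 0.20, adjusted p = 0.105). That difference was called with no filter (adjusted p = 0.0381) and when Rn45s and Malat1 were removed (-0.51, adjusted p = 0.0353), and was 0.14 (adjusted p = 0.516) after trimmed mean scaling.

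Airn is the paternal non-coding RNA that overlaps Igf2r on the opposite strand and silences it on that allele. Airn stood at 24.4 and 19.02 FPKM with PFA, 17.2 and 20.9 with PBS, 3.10 and 2.74 without perfusion and 0.156 and 0.123 after injury. Igf2r to Airn was thus between 2.17 and 3.26 in the 4 perfused libraries, 64.4 and 70.8 without perfusion and 186 and 224 after injury. Airn was lower in unperfused than in PBS-perfused cells (-2.35 ± 0.20, limma adjusted p = 2.92e-05) and fell further after injury (-1.78 ± 0.20, adjusted p = 5.22e-05). Reads in the overlap of both genes cannot be told apart without strand.

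Grb10, the adaptor that dampens insulin and IGF1 signalling, was the only 1 of the 10 with its highest mean after injury. It was measured at 134 and 163 FPKM with PFA, 251 and 91.7 with PBS, 361 and 382 without perfusion and 607 and 666 after injury. The PBS-perfused libraries lay far apart, on either side of both PFA-perfused values. Injury-activated cells had more Grb10 than PFA-perfused (2.10 ± 0.42, limma adjusted p = 0.00144) and PBS-perfused cells (2.06 ± 0.42, adjusted p = 0.00166), but the difference from unperfused cells was not called (0.77 ± 0.42, adjusted p = 0.125). That difference was called without the first (adjusted p = 0.0161) or the second PBS-perfused library (adjusted p = 0.0174), which add to the estimate of spread only. The difference from PBS-perfused cells was 2.78 without the first and 1.34 without the second PBS-perfused library, and was called in both. Unperfused cells had more than PFA-perfused (1.33 ± 0.42, adjusted p = 0.0167) and PBS-perfused cells (1.29 ± 0.42, adjusted p = 0.0295). The latter fell to 0.57 (adjusted p = 0.143) without the second PBS-perfused library. The latter was also lost in a fit of the 2 groups alone (adjusted p = 0.0575). Both calls were lost without either unperfused library, with adjusted p from 0.0569 to 0.115, and the first was lost without the first PFA-perfused library (1.18, adjusted p = 0.0890). With no filter on low values the adjusted p was 0.0611 against PFA-perfused and 0.0940 against PBS-perfused cells.

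The wider IGF axis was followed in 21 listed genes, of which 19 were tested. After injury against unperfused cells 12 fell and 5 rose, beside 29.3% of all tested genes lower and 40.8% higher. The list median was -0.88 beside 0.17 over all genes. The counts were 12 lower and 2 higher of 18 tested after trimmed mean scaling. Igf1, the second ligand, fell from 29.5 and 41.1 to 0.768 and 1.09 FPKM (-4.22 ± 0.33, limma adjusted p = 5.55e-06). Igf1r, the signalling receptor, fell from 58.7 and 81.3 to 6.91 and 6.40 FPKM (-3.19 ± 0.26, adjusted p = 7.75e-06), and the adaptor Irs2 fell by 3.83 ± 0.38 (adjusted p = 2.27e-05). Igf1 and Igf1r were both higher in unperfused than in PBS-perfused cells, by 2.18 ± 0.33 and 1.71 ± 0.26, the same direction as Igf2r. In that comparison 4 of the 19 rose and 7 fell, beside 13.1% and 36.5% of all tested genes, with a median of -0.44 beside -0.36. Injury-activated cells had 14 of the 19 lower and 2 higher than PFA-perfused cells, beside 47.3% and 26.1% of all tested genes. Against PBS-perfused cells 14 were lower and 3 higher, beside 38.8% and 34.4% of all tested genes.

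In PBS-perfused against PFA-perfused cells, 9 of the 19 IGF genes were lower and 4 higher, beside 46.2% and 17.8% of all tested genes. The list median was -0.54 beside -0.50 over all genes. Igf2bp2, an RNA-binding protein that binds Igf2 mRNA, was the furthest up. It stood at 0.219 and 0.347 FPKM with PFA and 20.8 and 18.6 with PBS (4.01 ± 0.19, limma adjusted p = 4.82e-06), and at 25.5 and 21.1 without perfusion and 11.4 and 11.3 after injury. Igf2, by contrast, had its highest values where Igf2bp2 was lowest. Irs1 (-2.14 ± 0.33, adjusted p = 0.000514) and the binding protein Igfbp4 (-1.91 ± 0.22, adjusted p = 0.000132) were lower in PBS-perfused cells. Unperfused against PFA-perfused cells gave 11 lower and 3 higher, beside 56.3% and 17.4% of all tested genes. After trimmed mean scaling 9 were lower and 7 higher of 18 tested.

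**Figure D4:**
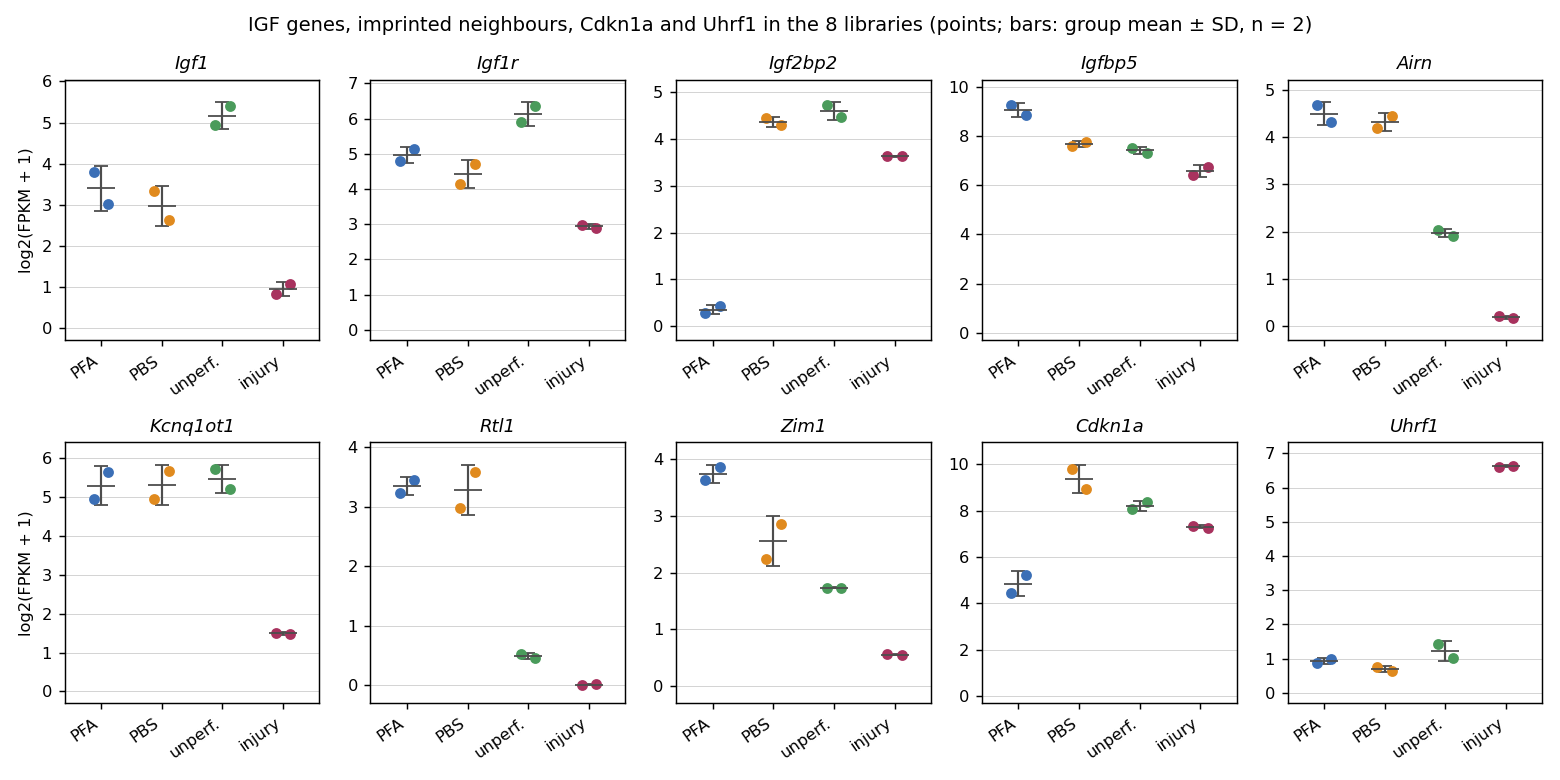
Level of 4 IGF genes, 4 imprinted neighbours of the 10 transcripts, Cdkn1a and Uhrf1, as log2(FPKM + 1), by group. Points are libraries and bars are group means ± SD (n = 2). Igf1 and Igf1r are highest in the unperfused libraries, Igf2bp2 and Cdkn1a are lowest in the PFA-perfused, Airn, Kcnq1ot1, Rtl1 and Zim1 are lowest in the injury-activated, and Uhrf1 is high only in the injury-activated libraries.

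Cdkn1c, the imprinted inhibitor of cyclin-dependent kinases, was highest after fixation and varied widely between replicates. Its values were 67.5 and 147 FPKM with PFA, 15.9 and 67.7 with PBS, 24.5 and 26.0 without perfusion and 12.1 and 9.87 after injury. The PBS-perfused libraries overlapped both the PFA-perfused and the unperfused, while the injury-activated libraries lay below all others. Injury-activated cells had less Cdkn1c than PFA-perfused cells (-3.08 ± 0.58, limma adjusted p = 0.00104), but the difference from unperfused cells was not called (-1.14 ± 0.58, adjusted p = 0.107). After trimmed mean scaling the latter was -1.75, with an adjusted p of 0.0308. It was also called without the first (adjusted p = 0.0186) or the second PBS-perfused library (adjusted p = 0.0182).

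The other Cdkn1c calls rested on single libraries or settings. PBS-perfused cells had less than PFA-perfused cells (-1.56 ± 0.58, limma adjusted p = 0.0396), with -0.55 (adjusted p = 0.291) without the first PBS-perfused library and -1.01 (adjusted p = 0.236) without the second PFA-perfused. This call was also lost in a fit of the 2 groups alone, with no filter, with trimmed mean scaling (a difference of -1.01), with quantile normalization and without either unperfused library (adjusted p from 0.0603 to 0.196). Unperfused cells had less than PFA-perfused cells (-1.94 ± 0.58, adjusted p = 0.0131), with -0.95 (adjusted p = 0.200) after trimmed mean scaling and -1.39 (adjusted p = 0.101) without the second PFA-perfused library. With no filter or without either unperfused library the adjusted p was 0.0655 to 0.0717. Injury-activated cells had less than PBS-perfused cells (-1.51 ± 0.58, adjusted p = 0.0391), with -0.50 (adjusted p = 0.317) without the second PBS-perfused library. It was also lost in 8 other alternatives, with adjusted p from 0.0680 to 0.133. Unperfused and PBS-perfused cells were not called apart (-0.38, adjusted p = 0.615), but without the first PBS-perfused library the difference was -1.39 (adjusted p = 0.0315).

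Kcnq1ot1, the paternal non-coding RNA of the domain that holds Cdkn1c, did not follow it. It stood at 29.7 and 48.9 FPKM with PFA, 29.8 and 49.9 with PBS, 51.4 and 36.1 without perfusion and 1.85 and 1.76 after injury. The uninjured groups overlapped, and Kcnq1ot1 fell by 3.97 ± 0.32 after injury against unperfused cells (limma adjusted p = 7.03e-06). Cdkn1c to Kcnq1ot1 was 6.51 and 5.60 in the injury-activated libraries and between 0.477 and 3.003 in the other 6.

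Of 6 relatives of Cdkn1c among the cyclin-dependent kinase inhibitors, 5 were tested. Cdkn1a, which is induced by stress and by p53, stood at 21.2 and 36.6 FPKM in the PFA-perfused libraries against 878 and 496 in the PBS-perfused (4.52 ± 0.35, limma adjusted p = 2.35e-05), the opposite direction to Cdkn1c. It was at 268 and 328 without perfusion and 162 and 153 after injury. Cdkn1b, which holds resting cells out of the cycle, was at 57.1 and 127 FPKM in the unperfused libraries and at most 9.66 in any other. It fell by 4.23 ± 0.36 after injury against unperfused cells (adjusted p = 9.67e-06). Counts over the 5 were 1 higher and 2 lower for PBS-perfused against PFA-perfused cells, beside 17.8% and 46.2% of all tested genes. Unperfused cells gave 2 higher and 3 lower against PFA-perfused (17.4% and 56.3% of all), and 1 and 4 against PBS-perfused (13.1% and 36.5%). Injury-activated against unperfused cells gave 1 higher and 2 lower, beside 40.8% and 29.3% of all.

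Plagl1, the transcription factor of cell cycle arrest, rose from fixed to unfixed cells and fell after injury. Its values were 6.49 and 6.10 FPKM with PFA, 11.8 and 14.3 with PBS, 16.4 and 16.9 without perfusion and 2.00 and 1.44 after injury, with no overlap between groups. It was higher in PBS-perfused (0.94 ± 0.20, limma adjusted p = 0.00306) and unperfused cells (1.27 ± 0.20, adjusted p = 0.000343) than in PFA-perfused cells. Unperfused and PBS-perfused cells were not called apart (0.33, adjusted p = 0.195), although after trimmed mean scaling the difference was 0.76 (adjusted p = 0.0163). After injury Plagl1 fell by 2.71 ± 0.20 against unperfused (adjusted p = 4.45e-06), by 2.37 ± 0.20 against PBS-perfused (adjusted p = 8.52e-06) and by 1.43 ± 0.20 against PFA-perfused cells (adjusted p = 0.000168).

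Peg3 was the most abundant of the 10 in PFA-perfused cells per transcript length. It was measured at 445 and 466 FPKM with PFA, 117 and 169 with PBS, 186 and 136 without perfusion and 105 and 105 after injury. Both PFA-perfused libraries lay above all others, and the PBS-perfused and unperfused libraries overlapped. Peg3 was lower than in PFA-perfused cells by 1.69 ± 0.27 in PBS-perfused (limma adjusted p = 0.000684) and by 1.51 ± 0.27 in unperfused cells (adjusted p = 0.000768), and it was lower after injury (-2.11 ± 0.27, adjusted p = 9.94e-05). After trimmed mean scaling the difference of unperfused from PFA-perfused cells was -0.51 (adjusted p = 0.0824). The differences of injury-activated from unperfused (-0.59 ± 0.27, adjusted p = 0.0798) and PBS-perfused cells (-0.42 ± 0.27, adjusted p = 0.190) were not called. Both were called after that scaling, at -1.22 (adjusted p = 0.00142) and -0.60 (adjusted p = 0.0431). With quantile normalization both were also called, at -0.98 (limma adjusted p = 0.00643) and -0.65 (limma adjusted p = 0.0405). The difference from unperfused cells was also called when Rn45s and Malat1 were removed (-0.82, limma adjusted p = 0.02), and was -0.81 without the second unperfused library.

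Usp29 and Zim1, imprinted neighbours of Peg3, also had their highest values in PFA-perfused cells, given here without a test against that group. Usp29, a deubiquitinase gene that starts beside Peg3 and runs the other way, stood at 2.28 and 1.69 FPKM there and between 0.298 and 0.483 in the other 6 libraries. Zim1, a maternally expressed zinc finger gene next to Peg3, was at 11.4 and 13.5 FPKM with PFA, 3.71 and 6.25 with PBS, 2.30 and 2.33 without perfusion and 0.474 and 0.460 after injury. Zim1 fell after injury against unperfused cells (-1.18 ± 0.23, limma adjusted p = 0.00134), while Usp29 showed a difference of -0.00 there (adjusted p = 0.991).

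Other imprinted genes gave a mixed picture, set beside the 10 as a description only. The 10 were chosen with earlier results of these data known, and Meg3, Rian and Mirg come from 1 region. The table held 28 other paternally expressed genes and 28 other maternally expressed genes, of which 20 each were tested. After injury against unperfused cells 7 paternally expressed genes rose and 7 fell (median -0.05), and 7 maternally expressed genes rose and 8 fell (median -0.37). The 10 had 1 rise and 5 falls there, and of all tested genes 40.8% rose and 29.3% fell. With trimmed mean scaling the maternally expressed genes were 4 higher and 11 lower (median -0.94) and the 10 were 1 higher and 7 lower. Snrpn rose by 1.89 ± 0.17 (limma adjusted p = 1.36e-05) and Slc38a4, an amino acid transporter, by 3.35 ± 0.40 (adjusted p = 6.60e-05), while Calcr, the calcitonin receptor of resting satellite cells, fell by 3.91 ± 0.34 (adjusted p = 9.63e-06). Gatm, an enzyme of creatine synthesis, rose by 3.96 ± 0.23 (adjusted p = 1.58e-06) and Gnas, a G protein gene, fell by 2.45 ± 0.34 (adjusted p = 0.000171).

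For PBS-perfused against PFA-perfused cells, 0 of the 20 paternally expressed genes were higher and 7 lower (median -0.37). Of the maternally expressed genes 3 were higher and 7 lower (median -0.44), beside 17.8% and 46.2% of all tested genes. After trimmed mean scaling 2 of the paternally expressed genes were higher and 5 lower, and the maternally expressed turned to 6 higher and 5 lower. Ndn, a growth suppressor of neurons, was the furthest down among the paternally expressed (-1.64 ± 0.20, limma adjusted p = 0.000167). For unperfused against PFA-perfused cells, 3 paternally expressed genes were higher and 12 lower, and 3 maternally expressed were higher and 10 lower. Of all tested genes 17.4% were higher and 56.3% lower. Trimmed mean scaling gave 5 higher and 9 lower among the paternally expressed, and turned the maternally expressed to 9 higher and 6 lower. Peg12, an inhibitor of Gsk3, stood out there, with 52.9 and 64.4 FPKM in the unperfused libraries, 1.23 and 0.870 with PFA and 0.818 and 0.301 with PBS (4.86 ± 0.23 against PFA-perfused, adjusted p = 7.79e-07). Nap1l5 went the other way, from 40.9 and 35.5 FPKM in the PFA-perfused to 0.495 and 0.956 in the unperfused libraries (-4.52 ± 0.22, adjusted p = 8.47e-07). For unperfused against PBS-perfused cells the counts were 4 higher and 6 lower among paternally and 2 higher and 9 lower among maternally expressed genes. Of all tested genes 13.1% were higher and 36.5% lower. The paternally expressed counts were the same after trimmed mean scaling, and the maternally expressed were 6 higher and 5 lower.

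**Figure D5:**
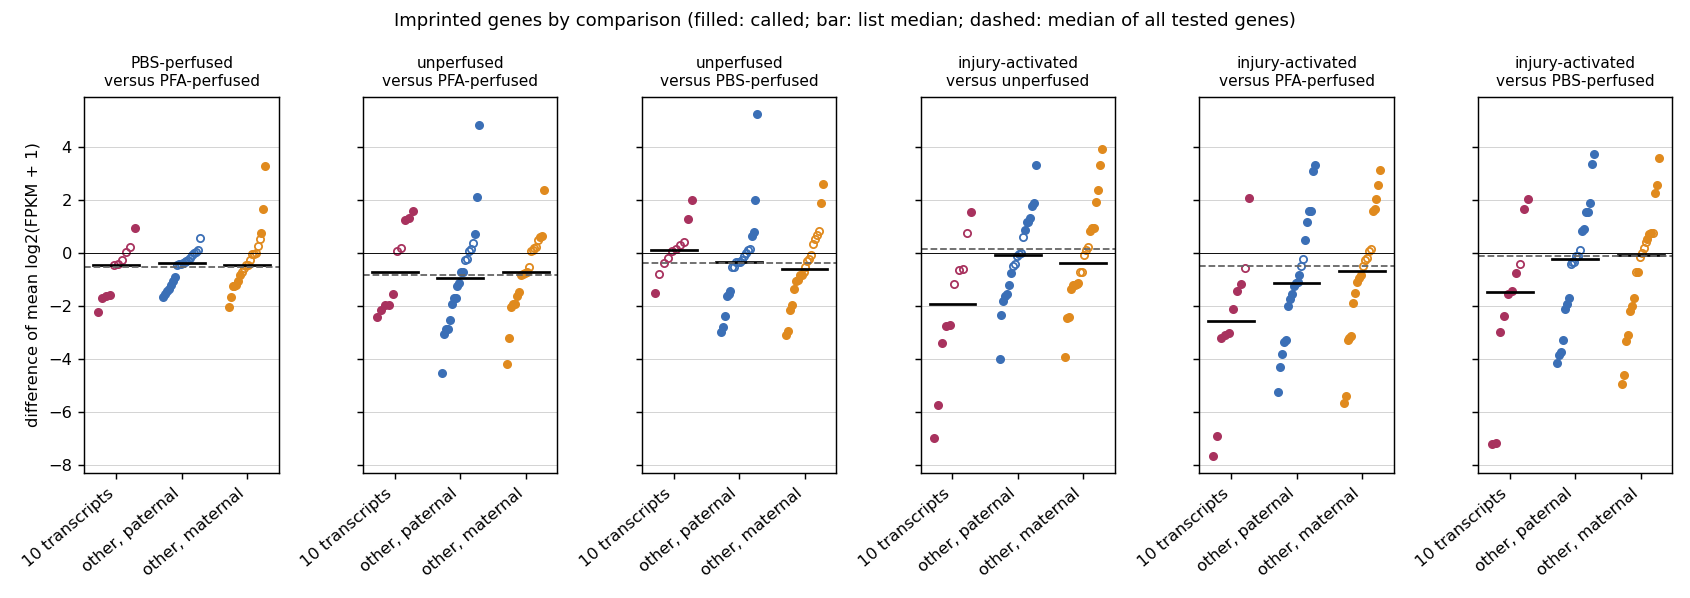
Difference of mean log2(FPKM + 1) of each tested gene in the 6 comparisons, for the 10 transcripts and for 20 other paternally and 20 other maternally expressed imprinted genes. Filled points were called, bars are list medians and the dashed line is the median of all tested genes. In injury-activated against unperfused cells the median of the 10 is -1.92 and those of the other lists are -0.05 and -0.37. The 10 were chosen with earlier results of these data known.

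Factors that maintain imprints were measured beside them, with 13 of 15 listed genes tested. Uhrf1 and Dnmt1, which copy DNA methylation at replication, rose after injury against unperfused cells by 5.40 ± 0.20 (limma adjusted p = 3.97e-07) and 4.43 ± 0.23 (adjusted p = 9.17e-07). Uhrf1 stood at 95.9 and 99.2 FPKM in the injury-activated libraries and at most 1.69 in any other. Dnmt3a, a methyltransferase that sets new marks, fell by 2.38 ± 0.24 (limma adjusted p = 2.13e-05). In all, 4 of the 13 rose and 6 fell, beside 40.8% and 29.3% of all tested genes. Zfp57, a zinc finger protein that guards methylated imprinted regions, was at 3.79 and 5.62 FPKM in the unperfused libraries and at most 1.68 in any other. Ctcf, which binds the unmethylated control region between Igf2 and H19, stood at 7.89 and 7.02 FPKM in the PBS-perfused libraries and between 23.0 and 31.8 in the other 6. In PBS-perfused against PFA-perfused cells 1 of the 13 was higher and 8 lower, beside 17.8% and 46.2% of all tested genes. After trimmed mean scaling 2 were higher and 2 lower.

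Over the 8 libraries the 10 transcripts followed several patterns, described here by Pearson's r of log2(FPKM + 1) without a test, since the libraries form 4 pairs. Meg3, Rian and Mirg ran together, with r of 0.97 for Meg3 and Mirg, 0.94 for Rian and Mirg and 0.92 for Meg3 and Rian. Plagl1 was close to Mirg (0.90) and Rian (0.85). All of these were lowest in the injury-activated libraries, and r over the uninjured libraries alone was not computed. Among the uninjured groups Meg3 had its lowest mean without perfusion, Rian with PBS, and Mirg and Plagl1 with PFA. Igf2, Cdkn1c and Peg3 formed another set, with r from 0.89 to 0.95, and Grb10 ran against Meg3 (-0.88), Cdkn1c (-0.84) and Igf2 (-0.81). H19 was not close to any other, with r from -0.73 (Plagl1) to 0.49 (Peg3).

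Outside the 10, the tested genes most like the mean of Meg3, Rian and Mirg were Ext1 (r = 0.996), Prex1 (0.994), Pptc7 (0.993), Col4a2 (0.993) and Ndst1 (0.992) over the 8 libraries. Ext1 and Ndst1 are enzymes of heparan sulfate synthesis and Col4a2 is a chain of basement membrane collagen. For Peg3 the nearest were Gm15880 (0.998), Chd9 (0.991) and Gm10400 (0.990), for Plagl1 Snora70 (0.998), Ubn1 and Plekha3 (both 0.993), and for H19 Pafah2 (0.993), Phf14 (0.989) and Agtrap (0.988). For Cdkn1c they were Eif4ebp3 (0.982), Notch1 (0.981) and Wdr82 (0.975), for Igf2 2810442N19Rik and Ctdnep1 (both 0.992) and Coro2b (0.987), for Grb10 Leo1 (0.983), Dnm1l (0.977) and Gpn1 (0.975), and for Igf2r 4930563F08Rik (0.992), Arhgap26 (0.991) and Raver2 (0.990).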

How the data were processed

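Polyadenylated RNA of sorted satellite cells was sequenced in 8 libraries, 2 in each of 4 groups, taken from the labels. The authors deposited 1 table of 24328 symbols by 8 libraries whose header names no unit. The deposited values were taken as FPKM, because they hold decimals and their totals differ between libraries. Per the submitters' processing notes, STAR 2.5.3a, StringTie 1.3.3, R 3.4.1 and mm9 were used, without roles. Per the labels' protocols, cDNA was made with SMART-Seq v4. Without counts, depth and counting error are unknown.

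Values were analysed as log2(FPKM + 1). A gene needed 1 FPKM or more in 2 or more libraries, and the 12515 that had it entered 1 linear model in limma 3.58.1 (R 4.3.3) over all 8 libraries, with a variance trend, no covariate and 6 contrasts, adjusted by Benjamini-Hochberg over all genes, two-sided, threshold 0.05. A pseudocount of 1 understates the changes of low genes. Alternatives were a replicate block, only the 2 groups compared, no filter, a filter of 5 FPKM, a pseudocount of 0.1, quantile normalization, scaling by a trimmed mean of ratios (0.3 trimmed by ratio, 0.05 by level), rescaling after Rn45s and Malat1 were dropped, and each library left out. Averaging both injury-activated libraries to 1 was chosen after seeing the data.

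The 10 genes, the other lists and the comparisons were chosen with earlier results of these data known. Named genes were all 10, the called genes of each other list with the largest differences (up to 3 in each direction and comparison, of which a part is printed), and the genes with the highest correlation to each pattern. Usp29, Dlk1, Dio3, Mir675 and Mir483 were added for their place beside the 10 genes after values were seen, as were some other comparisons of genes that met the rule. Sequences are from RefSeq on GRCm38.p6, while the reads were processed on mm9. No coordinates of measured genes are therefore given, and precursor positions within Meg3, Rian and Mirg follow gene models of GRCm38.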

Additional observations from a re-analysis of the deposited data

How the results depend on the processing

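Of 1020 values of the 10 genes under alternatives, 925 kept their direction and their side of the threshold, 44 lost a call, 26 gained one and 25 changed sign, all of the last in values that were not called. With the replicate number as a block, every call on the 10 genes was the same in all 6 comparisons, and the calls over all genes were 8145, 9336 and 6418 for PBS-perfused against PFA-perfused, unperfused against PFA-perfused and unperfused against PBS-perfused, and 8847, 9336 and 9299 for injury-activated cells against unperfused, PFA-perfused and PBS-perfused. Deviations of same-numbered libraries correlated between -0.0467 and 0.117, so the numbers were not taken as pairs. For PBS-perfused against PFA-perfused cells 5 of the 10 were called, 3 under quantile normalization and 3 to 6 with a library left out. For unperfused against PBS-perfused cells 3 were called, and 1 to 4 with a library left out. With trimmed mean scaling, uncalled differences changed sign for Meg3 (0.10), Rian (0.30) and Igf2r (0.14) in PBS-perfused against PFA-perfused and for Mirg (0.27) and Cdkn1c (0.057) in unperfused against PBS-perfused cells. In the former comparison quantile normalization gave 0.10 for Rian and -0.13 for Grb10, and removal of Rn45s and Malat1 gave -0.057 for Grb10. With a library left out, the differences of PBS-perfused from PFA-perfused cells ran from -0.99 to 0.081 for Meg3, -1.09 to 0.62 for Rian, -0.00059 to 0.51 for Mirg and -0.68 to 0.76 for Grb10. Those of unperfused from PFA-perfused cells ran from -0.31 to 0.69 for Rian and -0.17 to 0.32 for Mirg. Those of unperfused from PBS-perfused cells ran from -0.43 to 1.28 for Rian, -0.43 to 0.077 for Mirg, -0.19 to 0.38 for H19, -1.39 to 0.64 for Cdkn1c and -0.091 to 0.43 for Peg3. The cause was not tested. Leaving out a library leaves 1 in its group, which is then taken to vary as the other groups do, and 2 libraries per group limit every comparison.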
